A study of Homo sapiens with 24 samples.

Results

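Among 24 deposited arrays of RT112 bladder cancer cells, 6 carried high signals for FGFR3 and TACC3 together with none of the expression marks that set other arrays of the series apart. They were chosen by measured values: TACC3 on probe set 218308_at at or above 11.6, FGFR3 on 204379_s_at at or above 11.6, the brightest ARMCX3 probe set above 7 and the brightest GAS1 probe set below 7.5, all on the log2 scale. The 6 arrays split into 2 triplets by their likeness over all genes. The first triplet holds the arrays labelled control-plusDox-rep1, shRNA2-4-plusDox-rep1 and shRNA6-16-plusDox-rep1. The second holds those labelled control-plusDox-rep2, shRNA4-1-plusDox-rep3 and shRNA2-4-noDox-rep1. In every sentence below that gives 6 values, they follow this order.

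The cells are an established line from a human bladder carcinoma. All arrays come from cells transduced with a short hairpin RNA that doxycycline switches on, aimed at EGFP in the control line (EGFP is a jellyfish gene that human cells lack) or at FGFR3 in the lines FGFR3 shRNA 2-4, 4-1 and 6-16. Cells stood for 48 h in medium with 1% serum, with doxycycline at 1 µg/ml (plusDox) or without it (noDox), and total RNA was hybridised to Affymetrix arrays. The series has 8 labelled groups of 3 arrays, and the 6 arrays span all 4 labelled lines. By their labels the first triplet had doxycycline on 3 of 3 arrays and the second on 2 of 3, so the triplets are no labelled groups: replicates 1 and 2 of the control line with doxycycline lie in different triplets. The labels do not say whether a line is a clone or whether replicates were separate cultures. Which triplet had doxycycline is not known.

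FGFR3 is a receptor tyrosine kinase that, when bound by fibroblast growth factors, signals through the RAS, RAF, MEK and ERK kinases. RT112 cells carry a fusion gene that joins the kinase part of FGFR3 to the coiled-coil end of TACC3, a protein of the mitotic spindle, and the fused receptor signals without ligand. Signal from FGFR3 and TACC3 probe sets in these cells may therefore come in part from the same fused transcript. The FGFR3 probe set of the rule did not always follow TACC3. From the array labelled shRNA2-4-noDox-rep2 to that labelled shRNA2-4-noDox-rep3, TACC3 rose from 10.49 to 12.62. The rule's FGFR3 probe set fell from 11.85 to 11.42, and the other FGFR3 probe set rose from 8.71 to 11.14. Which FGFR3 probe set reads the fused transcript was not tested. Cells in culture pass through G1, S, G2 and mitosis, and the genes of each phase are transcribed together, those of G1 and S largely under E2F factors and those of G2 and mitosis through the CHR promoter element.

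The values that chose the 6 arrays are given here as a description. FGFR3 read 11.98, 12.08, 12.01, 11.92, 12.05 and 12.04. On this probe set, 204379_s_at, the triplets overlapped, and the arrays labelled as FGFR3 hairpin with doxycycline were not below the arrays labelled control with doxycycline. The rule asked for high FGFR3, so these levels cannot check the hairpin labels, and each array is named below only as the array labelled so. The other FGFR3 probe set, 204380_s_at, differed by 0.17 with overlap. There the arrays labelled as hairpin with doxycycline read 10.47 to 10.58. They lay below control-plusDox-rep1 at 10.67 and above control-plusDox-rep2 at 10.34. The lowest of the 6 on the rule's probe set was 11.92 and the nearest array outside the threshold stood at 11.43. TACC3 read 12.09, 12.12, 11.94, 11.83, 11.93 and 11.88, with the nearest array outside at 11.43; the first triplet lay above the second by 0.17, with neighbouring arrays at 11.94 and 11.93. ARMCX3, a mitochondrial outer membrane protein, read 9.50 to 9.65 against 4.93 for the nearest array outside. GAS1, a membrane protein that binds Hedgehog ligands, read 6.25 to 6.45 against 8.52 for the nearest outside. ARMCX3 and GAS1 overlapped between the triplets, with differences of -0.05 and -0.02.

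The labelled cell type was set against marker genes. Of 12 epithelial and urothelial marker genes listed, 11 were measured, from 9.58 for CLDN4, a tight junction protein, to 13.96 for KRT18, a keratin of simple epithelia, and 11 of 11 lay above 7.95, the median level of all genes on these arrays. Fibroblast markers lay above that level for 3 of 12, leukocyte markers for 3 of 11 and endothelial markers for 3 of 8. The brightest of them were LUM at 12.96, CD79A at 8.54 and PECAM1 at 9.38. A probe set's level also depends on its probes, so these levels do not rank genes, and LUM, a matrix proteoglycan listed for fibroblasts, was itself bright. The mean of the fibroblast markers was 7.65 to 7.67 in the first triplet and 7.66 to 7.70 in the second. That of the leukocyte markers was 6.95 to 7.0 and 6.94 to 7.07, and that of the endothelial markers 7.26 to 7.31 and 7.31 to 7.32. These lists overlapped between the triplets. The mean of the epithelial and urothelial markers did not overlap, at 12.17 to 12.21 in the first triplet and 12.12 to 12.14 in the second.

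The 6 arrays were close to each other. The root mean square difference over 19775 genes was 0.10 to 0.1184 between arrays of the same triplet. Between the triplets it was 0.1183 to 0.142, so these ranges overlapped slightly. From an array of the 6 to an array outside them it was 0.158 to 0.381. For 6 of 6 arrays the 2 nearest of the other 23 were the other members of its own triplet. The triplets were recognised by such likeness, so this describes them and is no separate support for the split. The array labelled shRNA6-16-plusDox-rep1 was the nearest of the first triplet to the second, at 0.118 to 0.121. A range over 1 was found for 1 gene within the 6 arrays (COX3, range 1.04) and for 1615 genes within the other 18. The median gene had a standard deviation of 0.056 within the first triplet and 0.060 within the second, and the median absolute difference between the triplet means was 0.061. The nearest array to the one labelled control-plusDox-rep1 was shRNA6-16-plusDox-rep1, not control-plusDox-rep2. The single array labelled without doxycycline lay nearest to shRNA4-1-plusDox-rep3.

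**Figure D1:**
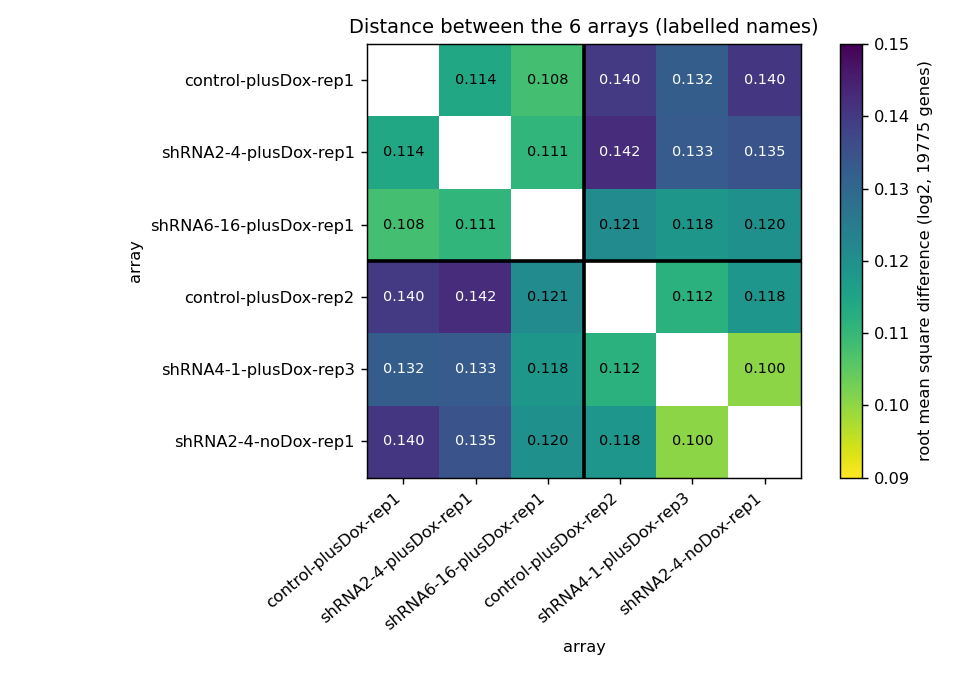
Root mean square difference over 19775 genes (log2) for each pair of the 6 arrays, named by their labels, with black lines between the first and the second triplet. Pairs within a triplet lie at 0.10 to 0.1184 and pairs across at 0.1183 to 0.142, so the ranges overlap slightly.

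Array quality values mostly overlapped. The 3' minus 5' signal of ACTB was 0.73 to 0.92 in the first triplet and 0.84 to 0.94 in the second, and that of GAPDH 0.25 to 0.27 and 0.23 to 0.27. Signals of 18S ribosomal RNA probe sets were 7.02 to 7.60 and 7.26 to 7.56. The bacterial polyA spike-in transcripts, which are added to the RNA before labelling, stood apart: their mean was 6.77 to 6.84 in the first triplet and 6.56 to 6.74 in the second. Their part in the gene differences below was not tested.

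The triplets differed by little. The 3 arrays of one triplet lay all above the 3 of the other, with means at least 0.5 apart (1.41-fold), for 7 of 19775 genes (0.0354%): CDS1, CALD1 and RNA45SN5 were higher in the first triplet (0.0152% of genes) and COX3, JSRP1, HAMP and MATR3 were lower (0.0202%). At a difference of at least 0.25 (1.19-fold) there were 243 such genes (1.23%), 155 higher (0.784%) and 88 lower (0.445%) in the first triplet. Without a minimum difference, 4725 genes (23.9%) did not overlap, 3094 higher (15.6%) and 1631 lower (8.25%). The triplets were themselves recognised from these values, so these counts are a description and have no test. The median gene lay 0.012 higher in the first triplet, and 99% of genes differed by less than 0.26.

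**Figure D2:**
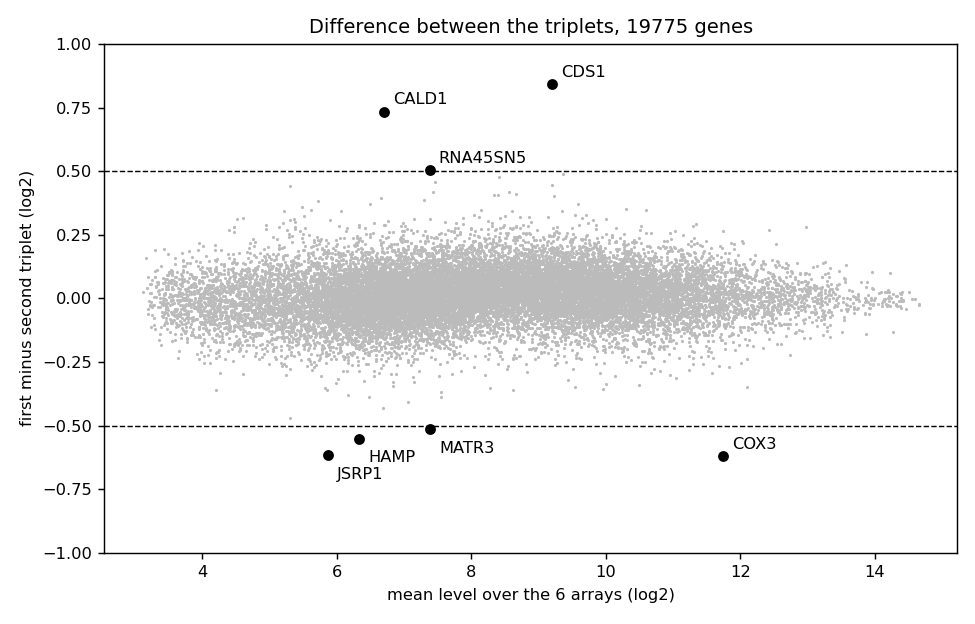
Difference between the means of the first and the second triplet (log2, vertical) against the mean level over the 6 arrays (log2, horizontal), 1 point per gene, with dashed lines at 0.5 and -0.5. The 7 named genes lie past a dashed line without overlap between the arrays; all other genes lie between them.

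CDS1 had the largest difference of all 19775 genes. It encodes CDP-diacylglycerol synthase 1, an enzyme of the endoplasmic reticulum that turns phosphatidic acid into the precursor of phosphatidylinositol. Its brightest probe set, 205709_s_at, read 9.56, 9.61, 9.68, 8.68, 8.74 and 8.90. The 3 arrays of the second triplet were low and did not overlap the first: the means were 9.62 ± 0.06 (SD, n = 3) and 8.78 ± 0.11 (SD, n = 3), a difference of 0.84 or 1.79-fold. The other 18 arrays of the series lay between 9.41 and 9.73, so the first triplet sat inside their range and the second sat 0.50 below all 21 other arrays. On 226185_at the difference was 0.55 and on 226187_at 0.26, again without overlap. The dim probe set 222063_s_at, at 5.18 and 5.15, differed by 0.03 and overlapped.

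Among the 2 arrays labelled as control line with doxycycline, CDS1 was 0.88 higher in the array of the first triplet. The only labelled contrast of doxycycline within a line on these arrays is that of FGFR3 shRNA 2-4, where the array labelled with doxycycline read 0.71 higher than the array labelled without. Both pairs lie across the triplets, which do not overlap in CDS1, so they do not compare labels apart from triplets. Within the first triplet, arrays of different label read 9.56, 9.61 and 9.68.

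**Figure D3:**
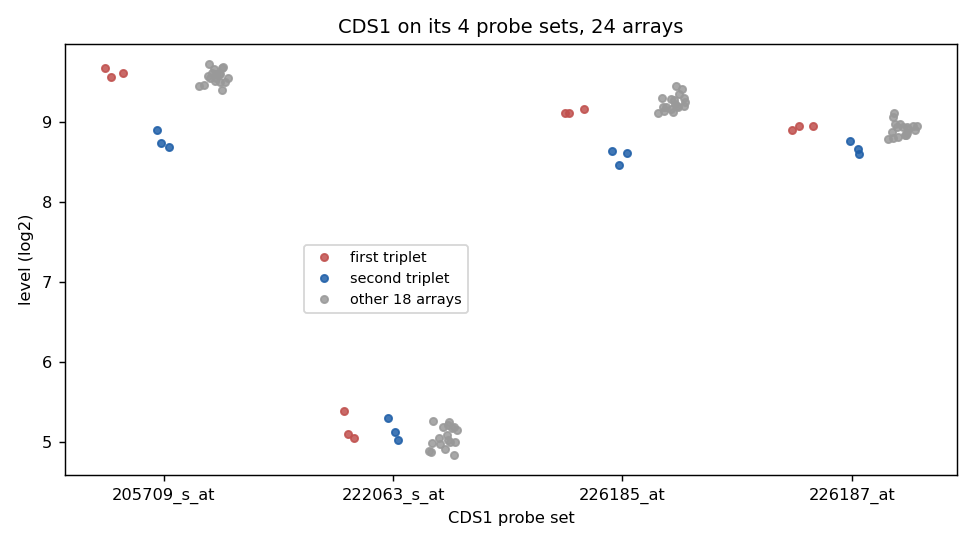
Level (log2, vertical) of CDS1 on each of its 4 probe sets in the 3 arrays of the first triplet, the 3 of the second and the other 18 arrays, 1 point per array. On 205709_s_at, 226185_at and 226187_at the 3 arrays of the second triplet lie below all others; on 222063_s_at the groups overlap.

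CALD1 was next in size. It encodes caldesmon, which binds actin, myosin and tropomyosin and restrains contraction. On 212077_at it read 6.95, 7.18, 7.10, 6.33, 6.25 and 6.44. The first triplet was high without overlap, with means of 7.08 ± 0.12 and 6.34 ± 0.10 (SD, n = 3 each) and a difference of 0.73. Its 10 other probe sets differed by -0.20 to 0.36, and with the mean of all its probe sets CALD1 differed by 0.094. The other 18 arrays ran from 5.79 to 8.93 on 212077_at, and both triplets lay inside that range.

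RNA45SN5, a copy of the 45S precursor of ribosomal RNA that is present in near-identical repeats, read 7.54, 7.72, 7.64, 7.07, 7.11 and 7.20 on 225767_at. The first triplet was higher by 0.50 without overlap. Its other probe set, 225762_x_at, differed by -0.12 and overlapped, so the 2 probe sets of this RNA did not point the same way, and which repeat was measured is uncertain.

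COX3, a subunit of cytochrome c oxidase encoded by the mitochondrial genome, read 11.22, 11.41, 11.68, 12.26, 11.92 and 12.003 on 238199_x_at. The first triplet was low, with means of 11.44 ± 0.23 and 12.06 ± 0.18 (SD, n = 3 each), and no array overlapped. The suffix of this probe set marks probes that can match several transcripts. The other 18 arrays read 11.68 to 12.54, which placed the second triplet inside their range and the first at or below its lower end.

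JSRP1, a protein of the sarcoplasmic reticulum in muscle, read 5.53, 5.59, 5.57, 6.19, 6.17 and 6.18. HAMP, which encodes the iron hormone hepcidin, read 5.90, 6.28, 6.00, 6.66, 6.60 and 6.58. Each was lower in the first triplet without overlap, by 0.62 and 0.55, at levels below the median gene of these arrays. MATR3, a nuclear matrix protein that binds RNA, read 7.01, 7.18, 7.21, 7.83, 7.54 and 7.57 on 242260_at, a difference of -0.51 without overlap. The other 18 arrays ran from 6.42 to 7.95 for MATR3, 5.63 to 6.66 for JSRP1 and 6.21 to 6.79 for HAMP.

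**Figure D4:**
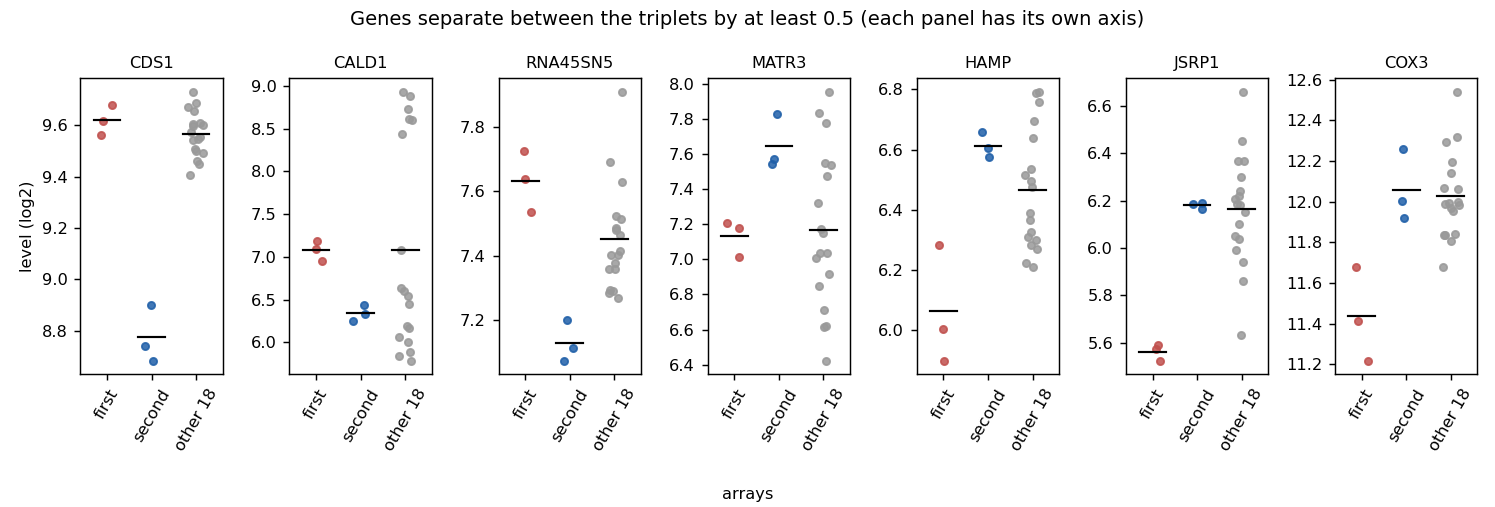
Level (log2, vertical; each panel has its own axis, not starting at 0) of the 7 genes that did not overlap and differed by at least 0.5, in the first triplet, the second triplet and the other 18 arrays; points are arrays and bars are means. CDS1 is the gene whose second triplet lies clear of all other arrays, at 8.68 to 8.90 against 9.41 to 9.73 in the other 18.

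A triplet was also set against all 21 other arrays of the series, a view added after the values were seen. The second triplet lay below all others for 71 genes (0.359%) and above for 21 (0.106%), and the first lay below for 48 (0.243%) and above for 151 (0.764%). Clear gaps were few. By over 0.2 the second triplet was below all others in 2 genes (0.0101%), CDS1 and FBXW11, and the first was above all others in 1 gene (0.00506%), RYR1. FBXW11, an F-box protein that selects phosphorylated proteins for ubiquitination, read 9.86, 9.80, 9.93, 9.48, 9.55 and 9.58 against 9.90 to 10.22 in the other 18 arrays. Its other probe set, 209456_s_at, differed by 0.20 with overlap, at 8.09, 7.51, 7.89, 7.60, 7.65 and 7.65. RYR1, a calcium release channel, read 7.95, 7.93, 7.90, 7.65, 7.57 and 7.66 against 6.38 to 7.69.

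By a gap over 0.1, 7 genes (0.0354%) set the second triplet below all others and 1 gene (0.00506%), SMIM3, set it above. Among the 7 was EXOC6B, a subunit of the exocyst that tethers secretory vesicles, at 9.46, 9.53, 9.33, 8.89, 9.10 and 9.11. DKK1, a secreted inhibitor of Wnt signalling, read 9.03, 8.96, 9.09, 8.68, 8.70 and 8.73. MBIP, EHD2 and CELSR1 completed this set. The first triplet was below all others by over 0.1 in 3 genes (0.0152%). Of these, NCKAP1, a subunit of the WAVE complex that drives actin branching, read 11.93, 11.87, 11.98, 12.25, 12.27 and 12.30, and SNX8 and SGPP1 were the others. The first triplet was above all others by that gap in 9 genes (0.0455%). One was ALDH3A1, an aldehyde dehydrogenase, at 11.81, 11.86, 11.80, 11.69, 11.55 and 11.64. The other 18 arrays read 10.58 to 11.39 for ALDH3A1, so the second triplet was also above them. IGFBP4, a binding protein of insulin-like growth factors, read 7.38, 7.33, 7.37, 7.11, 7.21 and 7.20 against 6.78 to 7.18. In each of these genes the triplets did not overlap, which the view required.

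Genes of G2 and mitosis were lower in the first triplet in most members. Of 24 genes of G2 and mitosis, 24 were measured, 22 were lower in the first triplet and 16 (66.7%, against 8.25% of all genes) did not overlap in that direction. For 0 of 24 did the first triplet lie above. With the mean of all probe sets of a gene, 10 rather than 16 did not overlap. The median difference was -0.099, beside 0.012 for all genes, and no member reached 0.25. The mean level of the list was 11.18, 11.20, 11.19, 11.26, 11.30 and 11.32, with the second triplet higher on every array.

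ASPM, a spindle pole protein, read 11.17, 11.20, 11.16, 11.35, 11.37 and 11.44, a difference of -0.21 and the largest of the list. KIF23, a kinesin of the midzone that cytokinesis needs, read 10.05, 10.11, 10.08, 10.20, 10.30 and 10.32. AURKA, the kinase that matures centrosomes, read 11.88, 11.89, 11.89, 11.998, 12.09 and 12.12. None of the 3 overlapped between the triplets. CDK1, the kinase of mitotic entry, and TOP2A, which untangles DNA, each differed by -0.18. UBE2C and CDC25C were the 2 members that were not lower, at 0.02 and 0.01, and they overlapped. In bulk RNA, fewer cells in a phase and less RNA per cell cannot be told apart.

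Of 25 measured genes of G1, S phase and replication, 11 were higher in the first triplet without overlap (44%, against 15.6% of all genes) and 2 were lower (8%, against 8.25%). In all, 16 members were higher and 9 lower. The median difference was 0.070. The list means were 11.05, 11.07, 11.07, 11.00, 11.00 and 11.03, again without overlap but in the other direction from the G2 and mitosis genes. CDC6, which loads the replicative helicase, read 9.32, 9.46, 9.41, 9.11, 9.11 and 9.17 and differed by 0.27 on each of its 2 probe sets. The helicase subunits MCM3, MCM5 and MCM7 were higher by 0.21, 0.17 and 0.16. CDT1, the partner of CDC6 in loading, went the other way at 10.87, 10.90, 11.00, 11.09, 11.09 and 11.17.

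Promoters are shown for ASPM and KIF23 of the G2 and mitosis list and CDC6 of the G1 and S list. They were picked by size of difference among members without overlap whose promoter held the letters marked below, with some chromosomes left out. Holding the letters was thus a condition of being shown. Each is 250 bases before to 50 after the gene start from RefSeq (GRCh38.p14), printed along the gene's strand. Capitals mark the CHR letters TTTGAA, on either strand, in ASPM (chr1:197146620-197146919, minus strand) and KIF23 (chr15:69414099-69414398, plus strand). In CDC6 (chr17:40287629-40287928, plus strand) they mark an E2F match.

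ASPM: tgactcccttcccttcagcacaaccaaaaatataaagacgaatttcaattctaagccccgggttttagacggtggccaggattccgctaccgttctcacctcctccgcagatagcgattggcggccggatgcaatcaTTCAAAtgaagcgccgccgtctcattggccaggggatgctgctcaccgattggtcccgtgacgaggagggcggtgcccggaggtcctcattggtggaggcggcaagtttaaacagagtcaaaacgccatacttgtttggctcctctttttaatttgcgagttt

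KIF23: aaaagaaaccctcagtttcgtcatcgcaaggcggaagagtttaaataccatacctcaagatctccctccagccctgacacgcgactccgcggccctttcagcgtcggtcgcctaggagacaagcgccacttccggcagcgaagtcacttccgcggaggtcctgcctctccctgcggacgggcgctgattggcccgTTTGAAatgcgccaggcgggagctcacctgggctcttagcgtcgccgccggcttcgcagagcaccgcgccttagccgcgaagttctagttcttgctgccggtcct

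CDC6: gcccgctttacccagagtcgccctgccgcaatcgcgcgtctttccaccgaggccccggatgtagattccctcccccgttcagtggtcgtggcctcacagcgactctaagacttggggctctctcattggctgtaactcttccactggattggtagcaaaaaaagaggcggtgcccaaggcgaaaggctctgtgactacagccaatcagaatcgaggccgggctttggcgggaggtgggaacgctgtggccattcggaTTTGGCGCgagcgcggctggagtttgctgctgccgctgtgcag

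Both strands were searched. TTTGAA was found in 15.4% of 27305 promoters of this length, in 13 of the 20 G2 and mitosis genes with a promoter in the table (65%) and in 1 of 22 G1 and S genes (4.55%). The E2F letters searched were TTTCCCGC, TTTGGCGC and TTTCGCGC. Any of them was found in 2.79% of all promoters, in 16 of 22 G1 and S genes (72.7%) and in 2 of 20 G2 and mitosis genes (10%). A match is a description of the letters, and none of these shares uses the arrays.

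Targets of TGF-beta and BMP signalling formed the only list of 35 with a median difference above 0.1. Of 14 measured, 13 were higher in the first triplet, 8 without overlap (57.1%, against 15.6% of all genes) and 5 by at least 0.25 (beside 0.784% of all genes), and the median was 0.16. Their mean level was 9.33, 9.35, 9.35, 9.15, 9.18 and 9.20. The ID proteins block basic helix-loop-helix transcription factors. ID2 read 8.80, 8.89, 8.91, 8.49, 8.40 and 8.48, a difference of 0.41, and its other probe set differed by 0.47. ID3 read 10.58, 10.72, 10.72, 10.32, 10.40 and 10.44, and ID1 11.97, 11.97, 11.97, 11.73, 11.76 and 11.77. The 3 first-triplet arrays were high for each of the ID genes named.

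Matricellular genes of the list differed likewise. THBS1, the adhesive glycoprotein thrombospondin, read 11.57, 11.47, 11.41, 11.20, 11.19 and 11.19. CCN1 and CCN2, secreted proteins that bind integrins, differed by 0.29 and 0.25. SMAD7, the inhibitor that TGF-beta signalling induces, differed by 0.18 and TGFBI, a matrix protein, by 0.07. The other 18 arrays ran over 7.71 to 10.84 for ID2 and 10.02 to 11.54 for THBS1, so ID2 in both triplets lay inside the spread of the series.

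Counts of members without overlap are read below against all genes, of which 15.6% were higher and 8.25% lower in the first triplet. Of 22 feedback and immediate targets of ERK, 4 were higher (18.2%) and 1 lower (4.55%), near the shares of all genes, with a median of 0.047. EPHA4, an ephrin receptor, read 9.27, 9.16, 9.18, 9.28, 9.42 and 9.45, a difference of -0.18 that became 0.011 with the mean of its probe sets. Among 14 measured FGF ligands and receptors, 3 were higher (21.4%) and 0 lower (median 0.027), and FGFR1 differed by -0.20 with overlap. Among 10 measured genes of the EGFR family and its ligands, 1 was higher (10%) and 0 lower (median -0.029). That 1 gene was ERBB2, a receptor tyrosine kinase, at 11.25, 11.28, 11.17, 11.10, 11.06 and 11.05. The inhibitors of cyclin-dependent kinases and p53 targets had 4 higher (33.3%) and 2 lower (16.7%) of 12, with a median of -0.0093 and ZMAT3 the largest at 0.22. Genes induced by FOXO factors had 1 higher (5.56%) and 4 lower (22.2%) of 18 (median -0.029), and CCNG2, a cyclin of arrested cells, was lower by 0.20 in the first triplet.

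Of 16 measured cholesterol synthesis enzymes, 1 was higher and 1 lower without overlap (6.25% each, below the shares of all genes), the median was 0.0047 and the largest difference was 0.13, for MVD. INSIG1, which holds the sterol sensor in the endoplasmic reticulum, read 11.67, 11.67, 11.69, 11.80, 11.88 and 11.95, and its list of uptake and SREBP2 control genes had 1 higher and 1 lower of 5. Fatty acid synthesis and desaturation had 4 higher (23.5%, beside 15.6% of all genes) and 0 lower of 17 (median -0.0018), led by the desaturase FADS2 at 0.21. Sterol efflux genes driven by LXR had 4 higher (40%) and 0 lower of 10, with a median of 0.033. With the mean of all probe sets of a gene they had 2 higher and 1 lower, and ABCG1, the transporter with the largest difference, went from 0.18 to 0.020. PPARG and its lipid targets had 2 higher (15.4%) and 1 lower (7.69%) of 13, about as all genes, and FABP5, a fatty acid carrier, differed by 0.21 with overlap.

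Of 24 measured genes of the ATF4 response to amino acid shortage, 7 were higher without overlap (29.2%, beside 15.6% of all genes) and 0 lower, with a median of 0.035. SLC7A11, the cystine importer, read 8.10, 8.0, 8.02, 7.77, 7.73 and 7.67, a difference of 0.32. SLC7A5 and SLC3A2, which together import large neutral amino acids, differed by 0.29 and 0.18. ATF4 itself differed by -0.03 with overlap. The endoplasmic reticulum stress list had 4 higher (28.6%) and 0 lower of 14 (SDF2L1, a chaperone partner, at 0.21) and the heat shock list 2 and 0 of 7 (HSF1, the heat shock factor, at 0.19). Metallothioneins and NRF2 targets exceeded the shares of all genes on both sides, with 6 higher (35.3%) and 3 lower (17.6%, beside 8.25%) of 17 and a median of 0.078, led by MT1H at 0.23.

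Of 15 genes of the BCL2 family, which govern the release of cytochrome c, 7 were higher in the first triplet without overlap (46.7%, beside 15.6% of all genes) and 0 lower, with a median of 0.057. With the mean of all probe sets of a gene, 3 were higher and the median was 0.012. BOK read 9.62, 9.54, 9.41, 9.29, 9.30 and 9.26. BAK1, BAD and BCL2 each differed by 0.20, BCL2L1 by 0.19 and BIK by 0.17. The set held promoters of cell death (BOK, BAK1, BAD, BIK) and protectors (BCL2, BCL2L1).

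Mitochondrial genes lay on both sides. Transcripts of the mitochondrial genome, a list added after the values were seen, had 0 higher and 3 lower of 7 measured (42.9%, beside 8.25% of all genes): COX3 at -0.62, ND6 at -0.23 and ATP6 at -0.13. COX2 and ND4 differed by 0.02 and 0.03 and overlapped. The nuclear genes of the respiratory chain had 2 higher (8.7%) and 7 lower (30.4%) of 23 without overlap, with a median of -0.013 that became 0.014 with the mean of all probe sets, and SDHD, an anchor of complex II, was largest at -0.12. Genes of mitochondrial translation had 7 higher (36.8%, beside 15.6% of all genes) and 1 lower (5.26%) of 19 (median 0.057), led by MRPL12 at 0.16. The mitochondrial unfolded protein response had 1 higher (9.09%) and 4 lower (36.4%) of 11, with the chaperone subunit CLPX at -0.19. Ribosome biogenesis had 4 higher (30.8%) and 2 lower (15.4%) of 13, led by RRP9 at 0.19.

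Glycolysis genes had 7 higher (33.3%, beside 15.6% of all genes) and 1 lower (4.76%) of 21 without overlap, and PFKFB3, which makes the activator of phosphofructokinase, read 9.62, 9.62, 9.67, 9.21, 9.42 and 9.45. Genes of the hypoxia response had 2 higher (13.3%, near that share) and 3 lower (20%, beside 8.25%) of 15, and VEGFA, the angiogenic growth factor, was lower in the first triplet by 0.21.

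The luminal list of urothelial differentiation had 8 higher (38.1%, beside 15.6% of all genes) and 1 lower (4.76%) of 21 without overlap, with a median of 0.042. KRT7, a keratin of glandular and urothelial cells, read 13.12, 13.20, 13.06, 12.82, 12.83 and 12.88 on its brightest probe set, a difference of 0.28. Its 3 dimmer probe sets differed by 0.12, -0.12 and 0.05, the last 2 with overlap, and the mean of its probe sets by 0.084. KRT8 differed by 0.27. The basal and squamous list had 6 higher (31.6%) and 2 lower (10.5%, near the 8.25% of all genes) of 19 (median 0.040), and its keratin KRT5 read 11.90, 11.94, 11.80, 11.58, 11.65 and 11.61. Proteases and matrix genes had 4 higher (19%) and 1 lower (4.76%) of 21, near the shares of all genes, led by the protease inhibitor TIMP2 at 0.21.

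Interferon-stimulated genes had 4 higher (19%) and 2 lower (9.52%) of 21, near the 15.6% and 8.25% of all genes, with a median of 0.016 and IFIT2, which binds viral RNA, the largest at 0.28. Peptide loading genes of MHC class I had 3 higher (27.3%) and 1 lower (9.09%) of 11, led by TAPBP at 0.22. Targets of NF-kappaB had 4 higher (21.1%) and 1 lower (5.26%) of 19 (median -0.018), and LCN2, an iron-siderophore binding protein, read 10.82, 10.76, 10.76, 10.45, 10.50 and 10.34. Of 7 measured histone genes 1 was higher (14.3%), H1-2 at 0.27. Of the markers of other cell types, the fibroblast list had 2 higher (16.7%) and 3 lower (25%) of 12, the leukocyte list 0 and 1 (9.09%) of 11 and the endothelial list 0 and 0 of 8.

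Across the 35 lists, 525 of 595 listed symbols were measured, 23 lists had a median above 0, and 0 lists held a gene with a difference of at least 0.5 without overlap.

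In a few genes the 6 arrays together lay outside the range of the other 18. These values follow from a choice made on the same arrays, and none of the 4 genes of the rule is among them, since each criterion was also met by arrays outside the 6. The 6 arrays lay below the other 18 by over 0.2 for 4 genes (0.0202%). EFEMP1, the matrix glycoprotein fibulin-3, read 6.16, 6.18, 6.37, 6.21, 6.09 and 6.20 against 8.22 to 10.00 in the other 18. BST2, the interferon-induced membrane protein tetherin, read 7.06 to 7.21 against 7.54 to 8.74; COL12A1, a fibril-associated collagen, and CLDN8, a tight junction protein, were the other 2. In 15 genes (0.0759%) the 6 arrays lay above the other 18 by that gap. ARHGEF6, an exchange factor for RAC1 and CDC42, read 8.69, 8.83, 8.76, 8.56, 8.55 and 8.57 against 6.84 to 7.32. EPHA7, an ephrin receptor, read 7.52, 7.71, 7.34, 7.47, 7.75 and 7.79 against 5.74 to 6.56, and PTX3, a secreted pentraxin, 6.76, 6.66, 6.70, 6.69, 6.77 and 6.81 against 4.11 to 5.91. For EFEMP1, BST2, EPHA7 and PTX3 the triplets overlapped, while ARHGEF6 was higher in the first.

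A test of the doxycycline labels is given for the arrays that the rule left out. The rule left them out by their own values of TACC3, FGFR3, ARMCX3 or GAS1, so this set is not independent of the rule. The fit also covered these genes, and FGFR3 is the target of the hairpins. In the other 18 arrays, 7 labelled with doxycycline and 11 without, a model with line and doxycycline found 0 of 19775 genes (0%) at an adjusted p under 0.05 (limma with Benjamini-Hochberg adjustment, smallest adjusted p 0.996), and 497 (2.51%) at an unadjusted p under 0.05 (165 higher and 332 lower with the doxycycline label). By chance 989 genes would be expected at that unadjusted p. Of the 18 arrays, 6 missed the FGFR3, 6 the ARMCX3 and 6 the GAS1 criterion, and the model had no term for these marks. Of the 7 genes with a triplet difference of at least 0.5, 0 had an unadjusted p under 0.05 (limma). Of the 243 genes at 0.25, 5 had. CDS1 averaged 9.58 with the doxycycline label and 9.56 without, a fitted change of 0.011 with a standard error of 0.050. For COX3 the change was -0.031 (SE 0.11). The change of CALD1 was 0.80 with a standard error of 0.53 (adjusted p = 0.996, limma). The labels of these 18 arrays did not separate any gene at this threshold, so this comparison does not tell which triplet had doxycycline. A small fitted change here does not show that doxycycline had no effect.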

How the data were processed

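Affymetrix arrays measured mRNA in 24 samples. The deposited values are log2 expression of 54675 probe sets per array, made with RMA and the affy package per the submitters' processing notes. RMA corrects background, quantile-normalizes and summarises probes, so a shift shared by most genes is removed. Versions and the probe grouping are not given in the sources used here. An array has no read depth, and the number of arrays limits the precision.

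Gene symbols came from the platform annotation in GEO: 41097 had 1 symbol, 1801 several and 11777 none, and the last 2 kinds were left out of gene counts. Identifiers of 41043 matched a RefSeq table, and 0 symbols changed. The probe set with the highest mean over the 24 arrays stood for each of 19775 genes, with no filter on low values. No column of another series was found (0).

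Triplet means, standard deviations and overlap were computed with pandas 2.3.3. The arrays, triplets and 35 gene lists were chosen with earlier results of these data known, and no test was made between the triplets. Named were the 4 genes of the rule, up to 15 genes called in each direction, and the largest member of each list; other genes were named after their values were seen, as were the mitochondrial genome list, the single probe sets and the gaps to all other arrays. The labelled doxycycline effect was fitted with limma 3.58.1 in R 4.3.3 (13 residual degrees of freedom, 3.12 from the prior; threshold 0.05), a script tested on simulated data. Labels name no separate cultures, so its p-values measure the spread between these samples, which may be technical.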

Additional observations from a re-analysis of the deposited data

How the results depend on the processing

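The 7 genes with a difference of at least 0.5 without overlap became 4 (0 higher and 4 lower in the first triplet) with the mean of all probe sets of a gene, which took out CDS1, CALD1 and RNA45SN5, and 4 (2 and 2) among genes with a mean level of at least 7, where the dimmer CALD1, HAMP and JSRP1 were not tested. The mean of all probe sets could not change COX3, JSRP1, HAMP and MATR3, which each have 1 probe set with a single symbol. A limit of 0.25 gave 243 and a limit of 1 gave 0. Quantile normalization of the 6 arrays alone gave 6 (2 and 4), without RNA45SN5, and centring gave 7. With 1 array left out the count ran from 6 to 9; without the array labelled control-plusDox-rep1 it was 7 (5 and 2). COX3, JSRP1, CALD1 and CDS1 were called in each of these 6 runs. With the mean of all probe sets of a gene, named differences that shrank by over 1.5 times included TAPBP (0.047), FGFR1 (-0.023), INSIG1 (-0.061), ERBB2 (0.071), MRPL12 (0.068), CLPX (-0.087), VEGFA (-0.086) and ZMAT3 (0.098). The difference of CDS1 ran from 0.42 to 0.91 over all alternatives. Of 45 named genes 42 kept their direction (FGFR3, GAS1 and EPHA4 did not), as did 23 of 35 list medians, among them G2 and mitosis (-0.12 to -0.090), G1 and S (0.054 to 0.071) and TGF-beta targets (0.15 to 0.21).

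The labelled doxycycline effect in the other 18 arrays gave 0 adjusted calls (limma) in every alternative run, with 338 to 1564 genes at an unadjusted p under 0.05 when 1 array was left out and 218 to 961 in the 7 other alternatives. The highest, 1564, came without the array labelled shRNA4-1-plusDox-rep2. With the replicate number as a block, 0 genes were called and 539 had an unadjusted p under 0.05. Deviations of same-numbered arrays correlated at -0.53 to 0.61, with 9 of 12 pairs over 0.1. The main model did not use the replicate numbers, and only the run with a block did. Whether same-numbered arrays were handled together was not tested.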

Other observations

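Single probe sets showed differences that the choice of 1 probe set per gene leaves out. Of 54675 probe sets, 20 had triplets at least 0.5 apart without overlap, 5 higher and 15 lower in the first triplet, and 3 of the 20 have no single gene symbol. The largest, 210387_at, which the annotation gives to several genes and is therefore not named, read 7.24, 7.12, 7.18, 8.06, 8.24 and 8.31, a difference of -1.02. MALAT1, a nuclear long noncoding RNA, was lower in the first triplet on each of its 12 probe sets, by -0.15 to -0.72, but the triplets overlapped on 9 of the 12. Of the 3 without overlap, 228582_x_at read 6.68, 6.92, 7.29, 7.47, 7.80 and 7.78. Its brightest probe set, 1558678_s_at, differed by -0.23 with overlap. MACC1, a regulator of MET transcription, differed by -0.81 on 1566764_at, with a standard deviation of 0.56 within the first triplet. PPP4R4, a regulatory subunit of protein phosphatase 4, read 4.71, 4.85, 4.63, 4.09, 4.19 and 4.03.

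Among the 243 genes that differed by at least 0.25 without overlap, the following were picked after their values were seen and stand for no group. SPINK4, a secreted protease inhibitor, differed by 0.49, ANXA3, a membrane-binding annexin, by 0.46, TNC, the matrix protein tenascin, by 0.44 and CD109, a surface protein that binds TGF-beta, by 0.42, all higher in the first triplet. SLC14A1, the urea transporter of the urothelium, was lower in the first triplet by 0.34, and SNX8, a sorting nexin, by 0.43.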
